A study of Mus musculus with 8 samples.

Results

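Krueppel-like factors are zinc finger transcription factors that bind GC-rich and CACCC-containing DNA. In T cells, Klf2 is known to keep resting cells quiescent and to drive genes of T cell traffic such as the egress receptor gene S1pr1, and its loss favors TFH differentiation. Klf3 and Klf12 belong to the members that repress their targets through the corepressor CtBP, whereas Klf4, Klf6, Klf7, Klf9, Klf10, and Klf13 are known as regulators of growth, differentiation, and cytokine genes. The genes described here, Klf2, Klf3, Klf4, Klf6, Klf7, Klf9, Klf10, Klf12, and Klf13, were taken by name. They were chosen with earlier results of these data known, and make up 9 of the 29924 gene names on the arrays. Of these, 8 were tested and Klf12 was too dim to be tested.

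Cells came from pLN of B6.Cg-Foxp3<tm1Mal> mice, in which Foxp3 expressing cells carry EGFP, after s.c. immunization with KLH in alum. All cell types thus shared genotype and immunization, and a control from mice that were not immunized was not analysed here. B220-CD4+ cells were sorted as naïve CD4 T cells (naïve T, GFP-PD1loGL7-), TFH cells (GFP-PD1hiGL7+), Treg cells (GFP+PD1loGL7-), and TFR cells (GFP+PD1hiGL7+/-), at d12 and d25 p.i. Per the labels, 8 to 15 mice of mixed sex and 8 to 14 weeks of age were pooled for a sample, and 25 ng of its RNA was used. Each cell type was hybridized once per day on a one-color Agilent array, which gives 8 arrays and 2 per cell type. Levels are normalized signals in relative units (RU), and pairs of values are given in the order d12 and d25. A level of 20 RU is the floor.

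Per array, 18261 to 19867 of 39429 probes were well above background according to the feature extraction software. Differences between cell types are log2 differences averaged over both days, given as estimate ± standard error from limma with 2 arrays per cell type. P values were adjusted over all 15764 genes tested, and a difference is referred to as called at an adjusted p below 0.05. The fit takes out a shift between the days that all cell types share. These p values thus measure how much the differences between cell types varied between d12 and d25. They do not measure the spread between samples of the same day, because no cell type was measured more than once on either day. All d12 arrays shared 1 slide. At d25, the Foxp3- cells were on a second slide and the Foxp3+ cells on a further one, so that day and slide cannot be told apart, and Foxp3+ and Foxp3- cells meet on 1 slide at d12 alone. In sorted bulk samples, fewer cells expressing a gene and less RNA per cell cannot be told apart. As for identity of the cells, summed follicular markers (Cxcr5, Pdcd1, Bcl6, Icos, Il21, Ascl2) reached 710310 to 945404 RU in TFH and 242996 to 310391 RU in TFR cells, but at most 52694 RU in the other cells. Summed Treg markers (Foxp3, Il2ra, Ikzf2, Ctla4, Lrrc32) reached 110402 to 129612 RU in the Foxp3+ cells and at most 20227 RU in the Foxp3- cells. Foxp3, Il2ra, and Lrrc32 made up most of the sum in Foxp3+ cells. Ikzf2 and Ctla4 were not called between TFH and Treg cells (log2 differences of 0.02 and -0.18).

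Some members of the family were lower and others higher in follicular cells. Compared to naïve T cells, 7 of the 8 genes tested were called in TFH cells, with Klf2, Klf6, Klf7, and Klf13 lower and Klf4, Klf9, and Klf10 higher. Of all genes tested, 46.5% were called in this comparison, 25.6% lower and 20.9% higher. In TFR compared to Treg cells, Klf2, Klf3, Klf6, Klf7, and Klf13 were lower and Klf4 and Klf10 were higher, which is 7 of 8 against 39.6% of all genes (20.9% lower and 18.7% higher). The median log2 difference of the 8 genes was -0.55 for TFH versus naïve T cells and -1.41 for TFR versus Treg cells, compared to -0.07 and -0.08 over all genes tested. The median size of the differences, irrespective of sign, was 1.52 and 1.48, compared to 0.44 and 0.38 over all genes. Between TFR and TFH cells 3 of the 8 genes were called (22.1% of all genes), 2 higher (11.6%) and 1 lower (10.5%). Between Treg and naïve T cells 2 were called (9.88%), both higher in Treg cells (5.89%), and between d25 and d12 none (0.0698%), although 5 had an unadjusted p below 0.05 for the day.

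**Figure D1:**
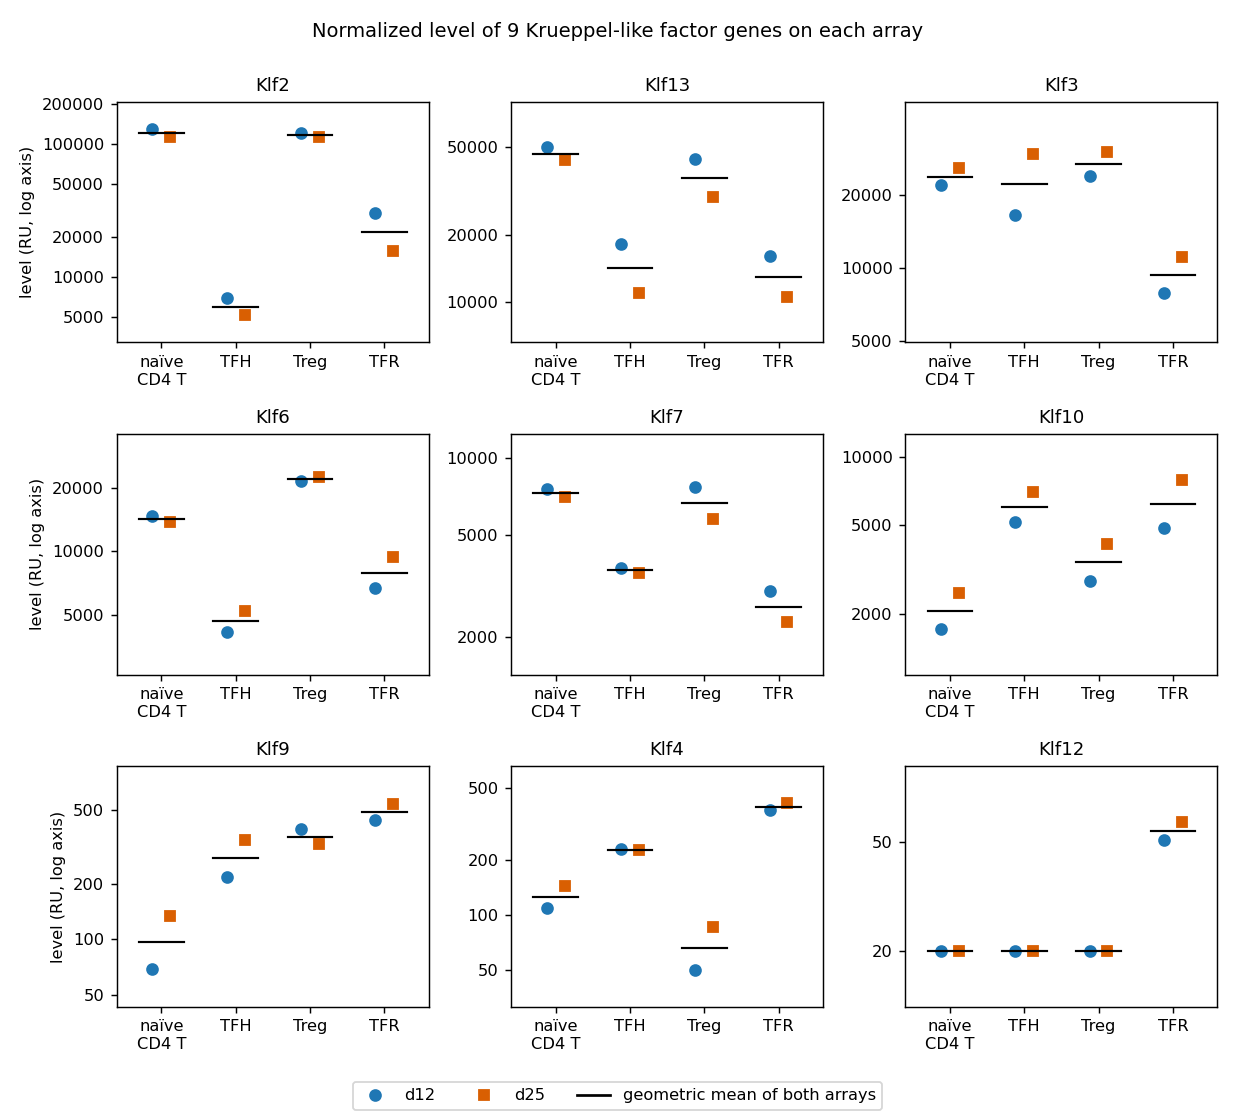
Levels of the 9 genes in RU (log axis, range set for each gene) on each array of naïve T, TFH, Treg, and TFR cells at d12 (circles) and d25 (squares), with the geometric mean of both arrays as a line. Klf2, Klf13, Klf6, and Klf7 lay lower on all arrays of follicular cells than on all arrays of the progenitors, naïve T and Treg cells, Klf3 was low in TFR cells alone, and Klf10 and Klf4 lay higher in follicular cells.

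Klf2 had the largest difference of the family. The promoter of the gene is shown because its regulation through MEF2 and Foxo factors is well known and the genes of these factors were measured as well. The 250 bases upstream of the start (RefSeq, GRCm38.p6, chr8:72318812-72319061, plus strand) hold 1 match to the MEF2 consensus, 118 bases before the start, and 1 CACCC on the opposite strand, both in capitals.
Klf2: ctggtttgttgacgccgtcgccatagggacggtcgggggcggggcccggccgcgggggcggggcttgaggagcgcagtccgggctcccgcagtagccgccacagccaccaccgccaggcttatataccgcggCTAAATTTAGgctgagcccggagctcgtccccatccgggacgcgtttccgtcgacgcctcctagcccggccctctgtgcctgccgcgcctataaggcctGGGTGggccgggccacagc
A match to the MEF2 consensus on either strand was found in 2.92% of 32851 mouse promoters of this length, and CACCC in 52%. No GTAAACA, the core letters bound by forkhead factors such as Foxo1, was present in these letters, whereas 3.17% of promoters hold it. RefSeq promoters were listed for 8 of the 9 genes, and Klf10 was missing.

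Klf2 (probe on chromosome 8, 74845137 to 74845196 in build NCBI37) had a level of 129986 and 112945 RU in naïve T cells and of 121977 and 112804 RU in Treg cells. In TFR cells it had 30295 and 15586 RU, and in TFH cells 6877 and 5110 RU. The arrays of naïve T and Treg cells overlapped, those of TFR cells lay below them, and those of TFH cells were the lowest. TFH cells were 20.4-fold lower than naïve T cells (-4.35 ± 0.22, adjusted p = 0.000305), and TFR cells 5.4-fold lower than Treg cells (-2.43 ± 0.22, adjusted p = 0.00245). Both calls held under all alternatives to the processing. TFR cells exceeded TFH cells by 1.87 ± 0.22 (adjusted p = 0.0071), by 2.14 at d12 within 1 slide and by 1.61 at d25, and without a filter on dim genes this call was lost (adjusted p = 0.0559). Treg and naïve T cells differed by -0.05 (95% interval -0.63 to 0.53). The fall from Treg to TFR cells was smaller than that from naïve T to TFH cells by 1.92 ± 0.32 on the log2 scale (adjusted p = 0.0318), where 8.49% of all genes were called, 4.03% above and 4.46% below 0. This call was lost in 10 of 20 alternatives, among them leaving out any array except that of TFR cells at d25 (adjusted p between 0.0661 and 0.126). The level in TFR cells at d25 was 0.514 times that at d12, while the remaining cell types changed less between the days.

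Klf2 is known to act on genes that guide T cells through lymph nodes, and 10 such genes were tested. Between TFH and naïve T cells, 6 of them were lower and 2 higher (25.6% and 20.9% of all genes). The S1P receptor S1pr1, needed for egress, had 35738 and 36933 RU in naïve T, 1753 and 1603 RU in TFH, 35471 and 35780 RU in Treg, and 4777 and 3132 RU in TFR cells. Ccr7, the receptor gene for homing to the T cell zone, had 169668 and 184404 RU in naïve T, 5024 and 7926 RU in TFH, 112945 and 117827 RU in Treg, and 23523 and 21470 RU in TFR cells. As for Klf2, TFH cells were lowest for both genes and TFR cells lay between them and the progenitors. The log2 differences between TFH and naïve T cells were -4.44 ± 0.18 (adjusted p = 0.000209) for S1pr1, and for Ccr7 -4.81 ± 0.20 (adjusted p = 0.000212). Itga4, Selplg, S1pr4, and Itgb7 were lower as well, with log2 differences from -3.02 to -1.95. The B cell follicle receptor Cxcr5 (7.16 ± 0.23) and the inflammatory chemokine receptor Cxcr3 (1.6 ± 0.17) were higher, and Cd69 and Ccr3 were not called (0.27 and -0.33). Between TFR and Treg cells 6 of the 10 genes were lower and 2 higher (20.9% and 18.7% of all genes).

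TFR and TFH cells differed in this list too, with 7 genes higher in TFR cells and 2 lower (11.6% and 10.5% of all genes). The 7 include Ccr3, with 108 and 64 RU in TFR cells and the floor of 20 RU on both TFH arrays. Ccr3 passed the filter for testing only through the Foxp3+ cells, so its call adds no support to this count. Ccr7 exceeded the level of TFH cells by 1.83 ± 0.20 (adjusted p = 0.00578), Selplg by 1.63 ± 0.20 (adjusted p = 0.00768), and S1pr1 by 1.21 ± 0.18 (adjusted p = 0.0137). Cxcr5 was lower by -2.55 ± 0.23 (adjusted p = 0.00335) and Cd69, which retains cells by opposing S1pr1, by -0.76 ± 0.17 (adjusted p = 0.0408). Among 13298 genes well above background on all arrays, 5830468F06Rik and S1pr1 were among the 3 that followed Klf2 most closely, with root mean square log2 differences of 0.311 (r = 0.991) and 0.346 (r = 0.986, n = 8 arrays) after centering each gene. These points share the same arrays and the same 4 cell types, and the values are a description.

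**Figure D2:**
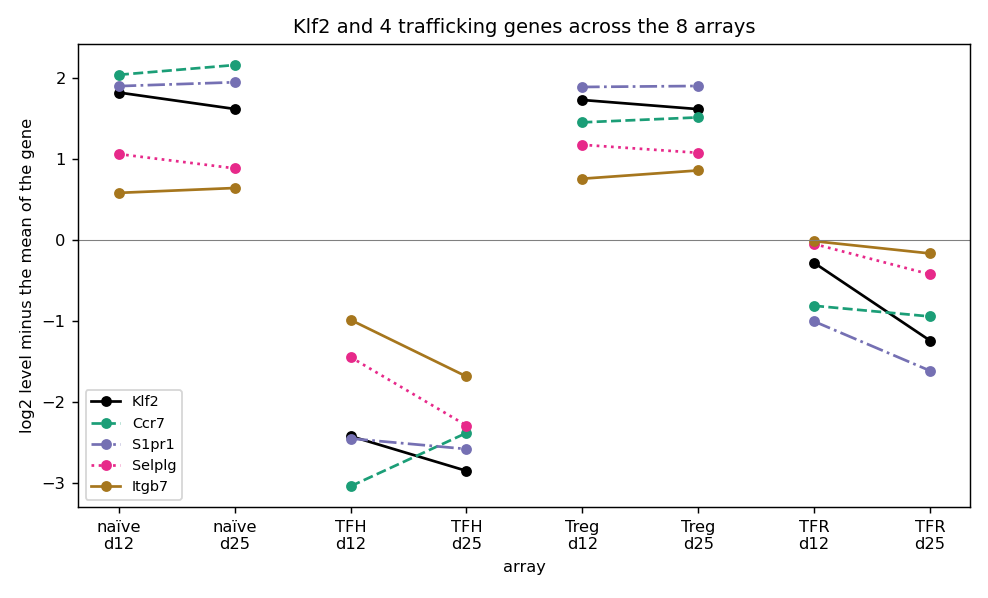
Log2 level of Klf2 and of 4 of the 10 trafficking genes after subtraction of the mean of each gene (vertical axis) on the 8 arrays (horizontal axis). Lines join d12 and d25 of a cell type, and all 5 genes were lowest in TFH cells, intermediate in TFR cells, and high in naïve T and Treg cells.

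Of 10 tested genes known to act upstream of Klf2, 6 were lower and 1 higher in TFH compared to naïve T cells, and 5 were lower and 1 higher in TFR compared to Treg cells. Over all genes, 25.6% were lower and 20.9% higher in the former, and 20.9% lower and 18.7% higher in the latter comparison. Foxo1, the forkhead factor that activates Klf2, had 45750 and 48092 RU in naïve T, 20554 and 16712 RU in TFH, 46283 and 38779 RU in Treg, and 25634 and 22704 RU in TFR cells. It was lower by -1.34 ± 0.12 (adjusted p = 0.00132) in TFH compared to naïve T cells and in TFR below Treg cells by -0.81 ± 0.12 (adjusted p = 0.00782). Pik3ip1, an inhibitor of the PI3K pathway that inactivates Foxo1, was lower by -2.90 ± 0.10 and -1.47 ± 0.10 in these comparisons (adjusted p = 0.000166 and 0.00124). Foxp1, Foxo4, Mef2d, and Mapk7 were the other genes lower in TFH cells, with log2 differences from -1.56 to -0.33. Mef2b was the exception. It had 330 and 207 RU in naïve T, 7881 and 7869 RU in TFH, 161 and 157 RU in Treg, and 487 and 474 RU in TFR cells, and was thus high only on the TFH arrays. The difference between TFH and naïve T cells was 4.91 ± 0.20 (adjusted p = 0.000192) and that between TFR and TFH cells -4.03 ± 0.20 (adjusted p = 0.000824). Mef2a was not called, and Mef2c was well above background on no array.

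Klf13, which is known to activate the chemokine gene Ccl5 in activated T cells, was the next in the group that fell. Its brightest probe (chromosome 7, 71082854 to 71082913) had 49791 and 43528 RU in naïve T, 18336 and 10978 RU in TFH, 44069 and 29628 RU in Treg, and 16098 and 10512 RU in TFR cells. All follicular arrays lay below all arrays of naïve T and Treg cells, and TFH and TFR cells overlapped. The differences were -1.71 ± 0.15 (adjusted p = 0.00128) between TFH and naïve T cells, and -1.47 ± 0.15 (adjusted p = 0.00317) for TFR versus Treg cells. A second probe (71032482 to 71032541) gave -1.16 and -0.87, and the mean of all probes -1.10 and -0.80, called in both comparisons. For the brightest probe, the call between TFR and Treg cells was lost with Tukey's test, which the study used. Tukey p values were adjusted for the pairs of cell types within a gene but not over genes, and here called means below 0.05. The remaining probe was well above background on no array. TFR and TFH cells differed by -0.13 (95% interval -0.52 to 0.27). Levels were lower at d25 than at d12 in all 4 cell types, but the day difference of -0.53 ± 0.11 was not called (adjusted p = 0.0813).

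Klf6, a factor induced in many cells by growth signals and injury, had 14654 and 13803 RU in naïve T, 4164 and 5236 RU in TFH, 21628 and 22450 RU in Treg, and 6689 and 9372 RU in TFR cells (probe on chromosome 13, 5869371 to 5869430). No arrays of any pair of cell types overlapped. Klf6 was lower in TFH than in naïve T cells by -1.61 ± 0.16 (adjusted p = 0.0019) and in TFR than Treg cells by -1.48 ± 0.16 (adjusted p = 0.00375). Both falls held under all alternatives and differed by 0.13 (95% interval -0.47 to 0.73). TFR cells exceeded TFH cells by 0.76 ± 0.16 (adjusted p = 0.0339), with 0.68 at d12 within 1 slide and 0.84 at d25, a call lost in 10 of 21 alternatives, including leaving out any array of TFH, Treg, or TFR cells (adjusted p between 0.0681 and 0.166). Treg cells had a higher value than naïve T cells by 0.63 ± 0.16, which was not called (adjusted p = 0.0828).

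Klf7, known for its role in neurons, had 7574 and 7030 RU in naïve T, 3743 and 3570 RU in TFH, 7757 and 5794 RU in Treg, and 3025 and 2292 RU in TFR cells (probe on chromosome 1, 64082265 to 64082324). Naïve CD4 T and Treg cells overlapped, and all follicular arrays lay below them. The differences were -1 ± 0.13 (adjusted p = 0.00392) between TFH and naïve T cells, and -1.35 ± 0.13 (adjusted p = 0.00271) for TFR versus Treg cells, and both held under all alternatives. TFR cells had the lower values of the follicular cells, but the difference of -0.47 ± 0.13 was not called (adjusted p = 0.0615).

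Klf3, a repressor that binds CtBP and is itself a target of other members of the family in blood cells, fell in TFR cells without a called change in TFH cells. Its promoter is shown because CACCC, the sequence bound by the family, occurs 5 times in the 250 bases upstream of the start (chr5:64803271-64803520, plus strand, both strands searched, matches in capitals). For Klf8, a relative of Klf3, RefSeq lists 2 starts. The downstream one is shown, with 3 CACCC and 1 match to the CArG consensus bound by the serum response factor (chrX:153359363-153359612, plus strand), whereas the upstream one has 1 CACCC and no CArG match.
Klf3: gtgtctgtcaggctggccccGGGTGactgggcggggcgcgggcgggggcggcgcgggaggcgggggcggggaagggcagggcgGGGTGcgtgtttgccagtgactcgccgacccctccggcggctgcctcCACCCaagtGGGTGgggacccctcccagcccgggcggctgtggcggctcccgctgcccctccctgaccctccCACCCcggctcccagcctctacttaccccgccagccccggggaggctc
Klf8: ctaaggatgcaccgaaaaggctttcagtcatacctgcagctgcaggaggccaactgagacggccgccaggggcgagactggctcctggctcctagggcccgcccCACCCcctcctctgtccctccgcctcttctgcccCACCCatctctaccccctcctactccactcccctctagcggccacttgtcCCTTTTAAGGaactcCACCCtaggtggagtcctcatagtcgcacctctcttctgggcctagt
The CArG consensus was found in 1.47% of promoters. Klf4 and Klf6 had no CACCC in this window, Klf7 had 3, and Klf12 and Klf13 had 1.

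The brighter probe of Klf3 (chromosome 5, 65223991 to 65224050) had 21905 and 25714 RU in naïve T, 16512 and 29524 RU in TFH, 23824 and 30105 RU in Treg, and 7897 and 11046 RU in TFR cells. Both TFR arrays lay below all other arrays, which overlapped with each other. TFR cells were lower than Treg cells by -1.52 ± 0.17 (adjusted p = 0.00362), lower than TFH cells by -1.24 ± 0.17 (adjusted p = 0.0095, with -1.06 at d12 within 1 slide and -1.42 at d25), and lower than naïve T cells by -1.35 ± 0.17 (adjusted p = 0.00306). TFH and naïve T cells differed by -0.10 (95% interval -0.53 to 0.32), with -0.41 at d12 and 0.20 at d25. A second probe (65221309 to 65221368) gave -1.56 between TFR and Treg cells, -1.52 between TFR and TFH cells, and -0.04 between TFH and naïve T cells. The change from Treg to TFR cells differed from that from naïve T to TFH cells by -1.42 ± 0.23 (adjusted p = 0.0323). This call was lost with the second probe (-1.52, adjusted p = 0.0843) and without any array of naïve T, Treg, or TFR cells (adjusted p between 0.0767 and 0.152). The call between TFR and TFH cells was lost in 6 of 22 alternatives. These were either TFR array left out (adjusted p = 0.0853 and 0.0759), slide as a block (-1.18, adjusted p = 0.0611), no day term (0.055), no filter on dim genes (0.0604), and Tukey's test, with which the call between TFR and naïve T cells was lost as well.

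Klf8 and Klf12 share CtBP binding with Klf3. Klf8 had 35 and 36 RU in naïve T, 48 and 49 RU in TFH, 51 and 47 RU in Treg, and 180 and 217 RU in TFR cells. It was well above background on the TFR arrays and on no other array. Measured against the lowest signal well above background where a level was dimmer than that, TFR cells were at least 3.73-fold higher than Treg cells. This bound holds for the signals as processed here, and with normexp background correction the log2 difference was 0.78 instead of 2.01. Klf8 passed the filter for testing only through the TFR arrays, so no p value is given for it. Klf12 (probe on chromosome 14, 100270699 to 100270758) was listed at the floor of 20 RU on all 6 arrays of naïve T, TFH, and Treg cells. In TFR cells it was listed at 51 and 59 RU, and was well above background on 1 of the 2 arrays. Low Klf3 values were thus found on the arrays with the highest Klf8 and Klf12 values. These are the TFR arrays, the only ones on which Klf8 or Klf12 was well above background. The pairing thus restates the difference of TFR cells from the other cells, and a link between these genes was not tested. Of the corepressor genes, Ctbp1 had 27605 to 31789 RU on all arrays and was called in no comparison, whereas Ctbp2 was well above background on no array. Hdac3 was higher in TFH than in naïve T cells (0.67 ± 0.12, adjusted p = 0.0111) and Sin3a was lower (-0.51 ± 0.08, adjusted p = 0.00696). No other of the 6 corepressor genes tested was called in this comparison, in which 46.5% of all genes were called.

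**Figure D3:**
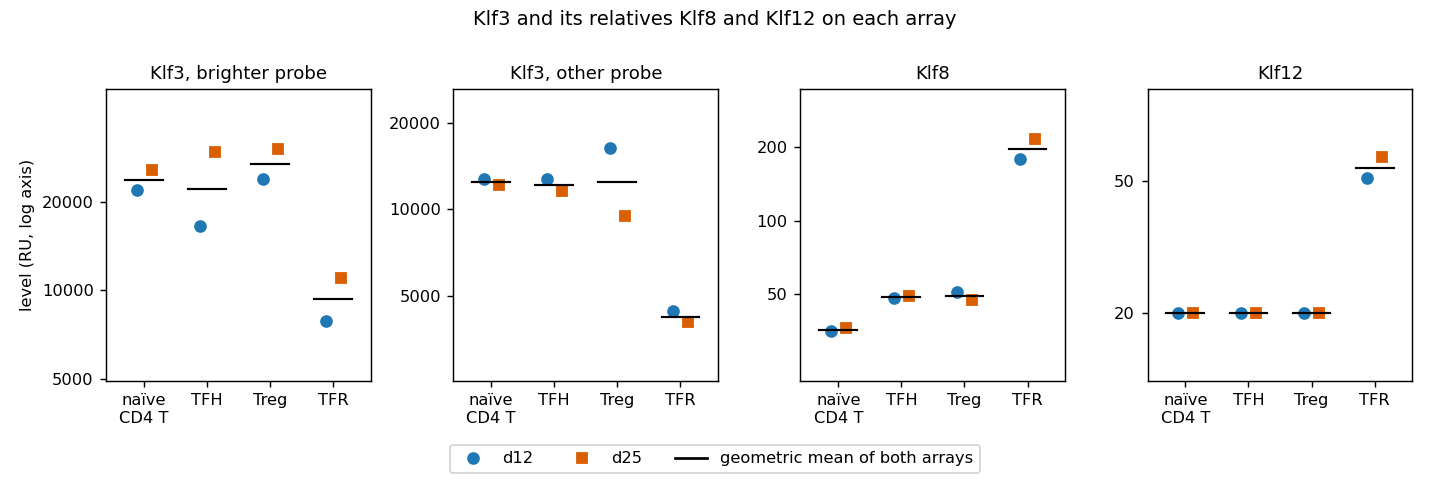
Levels in RU (log axis, range set for each panel) of both probes of Klf3, of Klf8, and of Klf12 on each array at d12 (circles) and d25 (squares), with the geometric mean of both arrays as a line. The TFR arrays were the lowest for both Klf3 probes and the highest for Klf8 and Klf12, of which Klf12 was at the floor of 20 RU in all other cells.

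Klf10, the TGF-beta inducible early gene, was highest in the follicular cells (probe on chromosome 15, 38224255 to 38224314). It had 1713 and 2468 RU in naïve T, 5120 and 6951 RU in TFH, 2804 and 4097 RU in Treg, and 4838 and 7901 RU in TFR cells. TFH and TFR cells overlapped, Treg cells lay below them, and naïve T cells were lowest. The differences were 1.54 ± 0.10 (adjusted p = 0.000544) between TFH and naïve T cells, 0.87 ± 0.10 (adjusted p = 0.00402) between TFR and Treg cells, and 0.72 ± 0.10 (adjusted p = 0.0169) between Treg and naïve T cells. Without the day term, the call between TFR and Treg cells was lost (adjusted p = 0.112). With Tukey's test, none of these differences was called. The difference between Treg and naïve T cells was 0.71 at d12 within 1 slide and 0.73 at d25, and its call was lost in 9 of 21 alternatives, including leaving out any array of these cells (adjusted p between 0.106 and 0.123). TFR and TFH cells differed by 0.05 (95% interval -0.20 to 0.31). Klf10 had higher levels at d25 than at d12 in all 4 cell types, by a factor of 1.36 to 1.63, but the day difference of 0.56 ± 0.07 was not called (adjusted p = 0.0659).

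Klf4, a reprogramming factor that is known to restrain T cell proliferation, had low levels throughout (probe on chromosome 4, 55540167 to 55540226). It had 109 and 144 RU in naïve T, 229 and 227 RU in TFH, 50 and 86 RU in Treg, and 378 and 410 RU in TFR cells. No cell types overlapped, TFR cells were highest, and in Treg cells only 1 of the 2 arrays was well above background. TFR cells exceeded Treg cells by 2.58 ± 0.21 (adjusted p = 0.00188). This call held under all alternatives, but the difference fell to 1.31 with normexp background correction. TFH cells exceeded naïve T cells by 0.86 ± 0.21 (adjusted p = 0.0263). The latter was lost in 8 of 20 alternatives, including leaving out either array of naïve T or TFR cells or the TFH array of d12 (adjusted p between 0.0542 and 0.127). The rise in Foxp3+ cells exceeded that in Foxp3- cells by 1.72 ± 0.30 (adjusted p = 0.0361), and by 0.87 with normexp. This call was lost in 10 of 19 alternatives, among them leaving out any array except that of Treg cells at d25 (adjusted p between 0.0538 and 0.164). TFR and TFH cells differed by 0.79 ± 0.21, which was not called (adjusted p = 0.0583).

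Klf9, a gene induced by glucocorticoid and thyroid hormones, had its lowest level in naïve T cells, with 69 and 134 RU, of which 1 array was well above background. It had 218 and 344 RU in TFH, 393 and 328 RU in Treg, and 439 and 538 RU in TFR cells (probe on chromosome 19, 23240410 to 23240469). Arrays of TFH and Treg cells overlapped and those of TFR cells lay above them. Klf9 was the member with the largest difference between Treg and naïve T cells, of 1.90 ± 0.30 (adjusted p = 0.0249), with 2.51 at d12 within 1 slide and 1.29 at d25. TFH cells exceeded naïve T cells by 1.51 ± 0.30 (adjusted p = 0.0142) and TFR cells exceeded them by 2.34 ± 0.30 (adjusted p = 0.00346). With normexp background correction these differences were 1, 0.75, and 1.29, and all were still called. The call for Treg cells was lost without any array of naïve T or TFR cells or the Treg array of d12 (adjusted p between 0.0552 and 0.118), and that for TFH cells without the naïve T array of d12 (0.0723) or the TFH array of d25 (0.0734). Without a filter on dim genes both were lost (adjusted p = 0.136 and 0.0818), and with Tukey's test that for TFH cells. TFR and Treg cells differed by 0.44 (95% interval -0.34 to 1.21). The promoter is shown because it holds GTAAACA, which lies 100 bases before the start, followed by 1 CACCC (chr19:23140976-23141225, plus strand, matches in capitals).
Klf9: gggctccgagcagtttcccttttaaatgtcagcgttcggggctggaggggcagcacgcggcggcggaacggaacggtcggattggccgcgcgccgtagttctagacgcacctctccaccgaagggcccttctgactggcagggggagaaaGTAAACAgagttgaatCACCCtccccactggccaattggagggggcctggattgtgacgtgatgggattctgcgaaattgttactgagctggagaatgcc

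**Figure D4:**
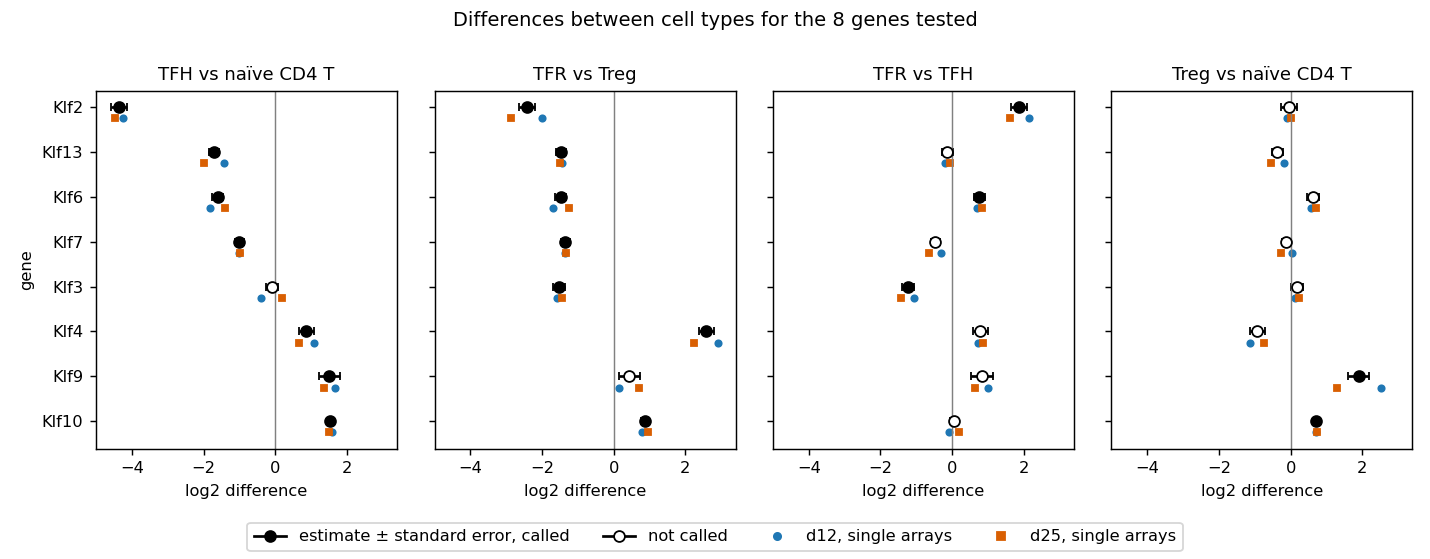
Log2 differences (horizontal axis) of the 8 genes tested in 4 comparisons, with the estimate of limma and its standard error (black, filled where called) and the differences of the single arrays of d12 (circles) and d25 (squares) below it. Klf2, Klf13, Klf6, and Klf7 were lower and Klf10 and Klf4 higher in both comparisons of follicular cells with their progenitors, whereas Klf3 was lower in TFR cells alone.

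In all, 48 differences between pairs of cell types were tested for the 8 genes, and 33 were called. None of these had opposite signs at d12 and d25, and 17 were called under every alternative. In TFR compared to naïve T cells all 8 genes were called, 3 higher and 5 lower, against 53.1% of all genes (23.4% higher and 29.7% lower). In TFH compared to Treg cells 6 of 8 were called, 2 higher and 4 lower, against 39.8% (18.8% higher and 21% lower).

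Of the other 8 Klf genes, Klf1, Klf5, Klf14, Klf15, and Klf17 were well above background on no array, and 3 were tested. Klf16 fell with follicular differentiation by -0.53 ± 0.09 (adjusted p = 0.00969) in TFH and -0.58 ± 0.09 (adjusted p = 0.00996) in TFR cells. Klf11, the closest relative of Klf10, had 146 and 128 RU in Treg and 89 and 76 RU in TFR cells and was not well above background in naïve T and TFH cells. It was at least 3.49-fold higher in Treg than in TFH cells, a bound that, as for Klf8, holds for the signals as processed here. Klf11 passed the filter for testing only through the Foxp3+ cells, so no p value is given for it. The related Sp genes bind the same GC-rich DNA. All 6 tested were lower in TFR than in Treg cells (20.9% of all genes), with log2 differences from -2.48 (Sp6) to -0.40 (Sp1). In TFH compared to naïve T cells, 3 of the 6 were lower (25.6% of all genes), Sp2 (-0.40), Sp4 (-0.78), and Sp8 (-1.72). Sp8 was also the gene most like Klf13 over the 8 arrays (root mean square log2 difference 0.142, r = 0.986). Genes of 6 ubiquitin ligases known to act on Klf proteins were tested. With naïve T cells as reference, 2 of the 6 had a lower level in TFH cells (25.6% of all genes), Smurf1 (-0.86) and Smurf2 (-0.93). With Treg cells as reference, 3 of the 6 had a lower level in TFR cells (20.9%), Smurf1 (-1.09), Smurf2 (-1.37), and Itch (-0.33). Wwp1, Fbxw7, and Nedd4 were called in neither comparison. For the other members, the most similar genes were March6 for Klf3, Slc7a7 for Klf4, Gbp2 for Klf6, Hist3h2bb-ps for Klf7, Dbndd2 for Klf9, and Vwa5a for Klf10, with root mean square log2 differences from 0.071 to 0.309.

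Several members are also known to respond to tissue handling, as immediate early genes do. Immediate early genes had a summed level of 114363 to 127158 RU in naïve T, 137618 to 152123 RU in TFH, 149567 to 151825 RU in Treg, and 137177 to 152660 RU in TFR cells. Jund was the largest part of this sum, with 65137 to 90232 RU, whereas Fos had 123 to 748 RU and Jun 179 to 1723 RU. The sum thus says little about the dimmer genes. Between TFH and naïve T cells 4 of the 12 immediate early genes tested were higher and 2 lower (20.9% and 25.6% of all genes). The 4 include Ier3, with 20 and 26 RU in naïve T and 56 and 62 RU in TFH cells. Ier3 passed the filter for testing only through the follicular cells, so its call adds no support to this count. The part of immediate early genes in the differences of Klf2, Klf4, Klf6, and Klf10 was not tested. Summed B cell markers had 4177 to 5251 RU in naïve T, 1584 to 11974 RU in TFH, 7829 to 8553 RU in Treg, and 4514 to 6565 RU in TFR cells, with Pax5 well above background on no array and no marker called in any comparison. Summed myeloid markers had 21580 to 30588 RU in naïve T, 18791 to 27400 RU in TFH, 18508 to 22617 RU in Treg, and 17716 to 23709 RU in TFR cells, and Cd14 and Adgre1 were well above background on no array. Most of this sum was Itgam, with 13020 to 28504 RU. Of the 5 myeloid markers tested, Itgam (-0.51) and Csf1r (-0.38) were lower in TFH than in naïve T cells (25.6% of all genes), and Cd68 was higher (20.9%). Cd68, a lysosomal protein gene, had 551 and 564 RU in naïve T, 5098 and 3768 RU in TFH, 368 and 394 RU in Treg, and 2868 and 2333 RU in TFR cells. It was thus high on all follicular arrays, with differences of 2.98 ± 0.16 (adjusted p = 0.000355) and 2.76 ± 0.16 (adjusted p = 0.000884) from naïve T and Treg cells. Of the 2 CD8 T cell markers, Cd8b1 was lower in TFH than in naïve T cells (-1.08, adjusted p = 0.00605), and Cd8a was not called (-0.72). In TFR compared to Treg cells, Cd8a (-1.18, adjusted p = 0.0361) and Cd8b1 (-0.96, adjusted p = 0.0111) were both lower (20.9% of all genes). The part of B, myeloid, or CD8 T cells in the differences was not tested.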

How the data were processed

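Per the labels, 25 ng of RNA per array was amplified and labeled with 1 dye. The authors extracted the spots with Agilent Feature Extraction 10.7.3.1 and deposited the spot intensities together with a table of normalized intensities, whose values are rounded. Here, values were rebuilt from the background-corrected spot signals. Spots with a software flag, outside 1.42 times the interquartile range of their 4 replicate spots, or with a pixel coefficient of variation above 0.5 were excluded, which retained 86.45% to 89.18% of them. The remaining spots of a probe were averaged by the geometric mean, normalized by quantiles, scaled to a 75th percentile of 1500, and set to a floor of 20. Across probes, r with the authors' table was 0.9994, and the median offset of the brightest 1% of probes was 0.51 (log2), with higher values here.

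The brightest probe represented a gene, and other probes served as a check. Tested were 15764 genes, those well above background at both days in some cell type. limma 3.58.1 in R 4.3.3 was used with additive terms for cell type and day, 3 residual degrees of freedom, and Benjamini-Hochberg adjustment over all genes tested, and the fit was tested on simulated data. As the study's one-way ANOVA with Tukey's test needs replicates, it was run as an alternative, with days as replicates. Its p values were not adjusted over genes, so that its calls and counts rest on another criterion than those of limma. In total 22 alternatives were run, 8 of which leave out 1 array. Where a cell type was not well above background on either array, a fold is a lower bound against the lowest signal well above background of each array. The members and the gene lists were chosen with earlier results of these data known. Some genes of the lists are not reported here and were left out of the counts. The 3 genes most like a member were those with the smallest root mean square difference of centered log2 values. Probe positions were taken from the files (NCBI37), and exon or UTR assignments were not used here. Promoters are from RefSeq in GRCm38.p6. The number of arrays limits the precision of all values.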

Additional observations from a re-analysis of the deposited data

Results flagged for a closer look

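For 3 of the 8 genes tested, the change from progenitor to follicular cell differed between Foxp3+ and Foxp3- cells by a test of that difference in limma. Of all genes tested, 8.49% were called in this test. For Klf2, the difference of log2 changes was 1.92 ± 0.32 (adjusted p = 0.0318), from -4.35 in Foxp3- to -2.43 in Foxp3+ cells. For Klf4 it was 1.72 ± 0.30 (adjusted p = 0.0361), with a rise of 0.86 in Foxp3- and 2.58 in Foxp3+ cells. For Klf3 it was -1.42 ± 0.23 (adjusted p = 0.0323), with -0.10 in Foxp3- and -1.52 in Foxp3+ cells. At d25, Foxp3+ and Foxp3- cells were on different slides, and with slide as a block in place of day the adjusted p values were 0.0728, 0.0753, and 0.0761 for Klf2, Klf4, and Klf3. In all, the call was lost in 10 of 20 alternatives for Klf2, 10 of 19 for Klf4, and 10 of 21 for Klf3.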

How the results depend on the processing

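No call of the 9 genes between cell types reversed under the alternatives run on it, and the calls for Klf2, Klf6, Klf7, and Klf13 between TFH and naïve T cells and for Klf2, Klf3, Klf4, Klf6, and Klf7 between TFR and Treg cells held under all of them. The number of genes called changed by more than 1.5 times as follows, and the cause was not tested. Between TFR and TFH cells, 5 were called with normexp background correction and 1 without a filter, without the day term, with slide as a block, or with Tukey's test. Between Treg and naïve T cells, 0 were called without a filter and 1 on genes well above background on all arrays, without the day term, with slide as a fixed or random block, or with Tukey's test. For the difference between Foxp3+ and Foxp3- cells, 1 was called without a filter and 0 without the day term or with slide as a block. For the day, 3 were called with normexp or with an intensity trend and 2 on genes well above background on all arrays. With Tukey's test, 4 were called between TFH and naïve T cells and 5 between TFR and naïve T cells. Leaving out 1 array gave 1 to 3 calls between TFR and TFH cells (1 without either TFR array), 0 to 2 between Treg and naïve T cells (0 without either naïve T array or the Treg array of d12), and 0 or 1 for the difference between Foxp3+ and Foxp3- cells. A cell type left with 1 array was assumed to vary like the others.

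Signs that reversed concerned differences that were not called. For Klf3, the day gave -0.28 with the second probe, and TFH versus naïve T cells gave -0.35 to 0.14 with 1 array left out (0.06 and 0.14 without the d12 array of naïve T or TFH cells). With slide as a block, Klf10 gave -0.02 between TFR and TFH cells, and Klf2 and Klf7 gave 0.06 and 0.04 between Treg and naïve T cells. Leaving out 1 array gave -0.26 to 0.16 for Klf2 between Treg and naïve T cells, -0.26 to 0.01 for Klf13 and -0.05 to 0.15 for Klf10 between TFR and TFH cells, -0.84 to 0.06 for Klf9 between TFH and Treg cells, -0.01 to 0.89 for Klf9 between TFR and Treg cells, and -0.06 to 0.32 for Klf6 in the difference between Foxp3+ and Foxp3- cells. For Klf8, TFH versus Treg cells gave 0.04 with scaling of the 75th percentile only and -0.15 to 0.10 with 1 array left out, and the day -0.01 to 0.12.

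Over all genes tested, the number called ranged from 4309 to 7819 between TFH and naïve T cells (7332 as reported), from 2494 to 6806 between TFR and Treg cells (6249), from 942 to 4249 between TFR and TFH cells (3486), from 416 to 2064 between Treg and naïve T cells (1557), from 3167 to 6835 between TFH and Treg cells (6278), from 4660 to 8915 between TFR and naïve T cells (8373), from 292 to 1816 for the difference between Foxp3+ and Foxp3- cells (1339), and from 0 to 1095 for the day (11). The day term pairs the arrays by day, and the fits without it and with slide as a block are given above. Klf4, Klf9, Klf8, Klf11, and Klf12 lay close to background, which limits their folds.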
